A study of Saccharomyces cerevisiae with 18 samples.

Results

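The genes described here are 10 genes of peroxisomal fatty acid oxidation in Saccharomyces cerevisiae, taken by name from the 6650 named ORFs of the deposited table: PXA1, PXA2, FAA2, POX1, FOX2, POT1, ECI1, SPS19, CTA1 and PEX11. All 10 were found, and 8 of them had a value in all 6 columns, as did 4956 ORFs of the whole table. POT1 had a value in 2 columns and CTA1 in 5. Messenger RNA was profiled in log-phase cells of the haploid laboratory strain BY4741 that had been inoculated into rich medium with xylulose, a pentose sugar. In 3 groups RXT3 was edited, by deletion (labelled delRXT3), by exchange for the allele of strain T73 (T73RXT3) or by exchange for that of strain CLIB215 (CLIB215RXT3). The other 3 groups carry the same edits at PHO23 (delPHO23, T73PHO23 and CLIB215PHO23). Both genes code for subunits of the histone deacetylase complex Rpd3L. The labels list 18 libraries, 3 per group, and the table has 1 column of centred log values per group, read here as the authors' pooled log2 value. The table gives no spread over these libraries, so each difference below is between 2 single values and has no replicate check. Unedited BY4741 was not analysed here.

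For 3 groups the genotype field of the samples disagrees with their titles, and the titles were followed. The samples titled T73RXT3 are given there as the PHO23 deletion, those titled CLIB215RXT3 as carrying the T73 allele of RXT3, and those titled delPHO23 as carrying the CLIB215 allele of RXT3. PHO23 had no value in the column labelled delPHO23 and had one in the other 5, among them T73RXT3 (-0.07), the column that the genotype field would make the PHO23 deletion. RXT3 stood at -0.05 in the column labelled delRXT3, inside the range of its values elsewhere (-0.36 to 0.23), so that label was not borne out by RXT3 and the column is named by its label only. Of the strain's markers, 6 of 6 a-specific genes had a value in all 6 columns. Of 4 alpha-specific genes, MF(ALPHA)1 and MF(ALPHA)2 had 1 value each, STE3 had 2 and SAG1 had 5. Of the genes that BY4741 lacks in whole or in part, LEU2 and MET17 had no value, URA3 had 1 and HIS3 had 6. The number of ORFs with a value ran from 5265 to 5391 per column, and read depth is unknown.

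In yeast the β-oxidation of fatty acids takes place in peroxisomes alone. Acyl-CoA enters through an ABC transporter, passes through oxidation, hydration, a second oxidation and thiolysis, and leaves as acetyl-CoA, while the hydrogen peroxide made in the first oxidation is removed by catalase. The genes are known to be repressed on glucose and induced on oleate, through the Oaf1-Pip2 activator, which binds oleate response elements, and through Adr1, an activator of genes repressed by glucose.

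The element is printed first because it was found before most of the 10 genes and few others. The search used CGGNNNTNANNNNNNNNNCCG and the same letters with 10, 11 or 12 instead of 9 bases before the final CCG, on both strands of the 500 bases before each start codon. Of 10 genes 9 held a match, against 113 of 6019 protein-coding genes (1.88%). The consensus was drawn up in earlier work from promoters that include some of these genes, so the share among them is a description. PXA1 alone held none, which says only that these letters are not in its window. The stretches below are from RefSeq's R64 assembly, read on the strand of the gene, with the fixed letters of the match, on either strand, in capitals and 8 bases on either side.
POX1, upper match (chrVII:107838-107876): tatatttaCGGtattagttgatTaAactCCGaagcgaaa
POX1, lower match (chrVII:107875-107913): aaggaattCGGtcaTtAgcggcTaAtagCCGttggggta
FOX2, upper match (chrXI:457329-457366): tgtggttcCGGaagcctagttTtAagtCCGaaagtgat
FOX2, lower match (chrXI:457297-457333): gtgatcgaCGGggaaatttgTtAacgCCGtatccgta
POT1 (chrIX:41602-41640): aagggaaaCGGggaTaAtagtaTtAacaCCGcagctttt
ECI1 (chrXII:707183-707221): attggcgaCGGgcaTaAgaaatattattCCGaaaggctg
SPS19 (chrXIV:259404-259443): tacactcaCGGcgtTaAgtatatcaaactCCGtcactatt
CTA1 (chrIV:969858-969897): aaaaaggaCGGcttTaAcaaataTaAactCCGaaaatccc
PEX11 (chrXV:48748-48786): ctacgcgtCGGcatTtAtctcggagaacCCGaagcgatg
FAA2 (chrV:184347-184385): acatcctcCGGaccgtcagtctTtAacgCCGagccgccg
PXA2 (chrXI:89027-89066): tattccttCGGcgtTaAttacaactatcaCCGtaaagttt

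POX1 and FOX2 held 2 matches each. In POT1, in CTA1 and in the lower match of POX1 the same bases matched on both strands. The match of PEX11 lay nearest to its start codon, 135 to 113 bases before it, and the upper match of POX1 lay farthest, 312 to 290 bases before it. A core of Adr1 sites, TTGGAG or TTGGGG on either strand, was found in 9 of 10 windows and in 26.1% of the 6019, PXA2 being without. In POX1 one such core followed the lower element directly, at 252 to 247 bases before the start codon. The core of URS1, the site of the repressor Ume6 that recruits Rpd3L, is GGCGGC. It was found on either strand before FAA2 and PXA2, 2 of 10 genes, and before 9.54% of all.

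**Figure D1:**
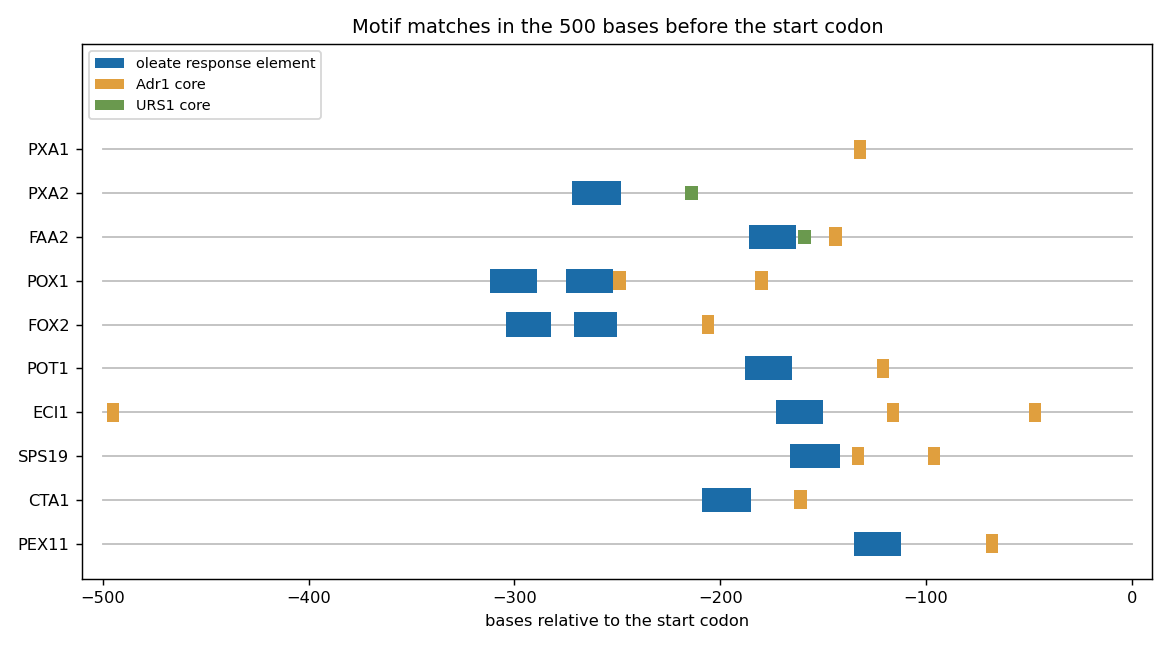
Motif matches before the start codons of the 10 genes. The horizontal axis gives bases relative to the start codon and each row is a gene, with oleate response elements in blue, Adr1 cores in orange and URS1 cores in green. In 9 rows an oleate response element lies between 312 and 113 bases before the start codon, and in 8 of these rows an Adr1 core lies nearer to the start codon than the element.

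The import and activation of fatty acids were examined first. PXA1 (YPL147W, chromosome XVI, 273255 to 275867, plus strand) and PXA2 (YKL188C, chromosome XI, 86225 to 88786, minus strand) code for the 2 subunits of the ABC transporter that brings long-chain acyl-CoA into the peroxisome. PXA1 had 0.02 in delRXT3, 0.28 in T73RXT3 and -0.48 in CLIB215RXT3, and -0.12 in delPHO23, -0.08 in T73PHO23 and 0.55 in CLIB215PHO23. Its lowest value was thus that of the CLIB215 allele at RXT3 and its highest that of the CLIB215 allele at PHO23. PXA2 had 0.47, -0.17 and -0.14 in delRXT3, T73RXT3 and CLIB215RXT3, and 0.17, -0.02 and -0.06 in delPHO23, T73PHO23 and CLIB215PHO23. It was highest in delRXT3, and its other 5 values lay within a narrow band, so the subunits of the transporter did not share an order of columns. FAA2 (YER015W, chromosome V, 184541 to 186775, plus strand), which codes for a medium-chain acyl-CoA synthetase of the peroxisome, had -0.14, -0.05 and 0.09 in the RXT3 columns in the same order and -0.29, 0.05 and -0.26 in the PHO23 columns. Its range over the columns, 0.39, was exceeded by 89.6% of the complete ORFs, the narrowest among the 8 genes. FAA2 overlaps the ORF of BUD25 on the other strand by 160 bases.

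Of the core enzymes, POX1 differed more widely between columns than FOX2, and POT1 had too few values to tell. POX1 (YGL205W, chromosome VII, 108158 to 110404, plus strand) codes for acyl-CoA oxidase, the first enzyme of the cycle. It had 0.68 in delRXT3, 0.26 in T73RXT3 and 0.68 in CLIB215RXT3, and -1.07 in delPHO23, 0.63 in T73PHO23 and -1.22 in CLIB215PHO23. The 4 higher values lay between 0.26 and 0.68, and delPHO23 and CLIB215PHO23 lay more than 1 unit below each of them. Its range of 1.90 was exceeded by 1.63% of complete ORFs, whose median range was 0.76.

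FOX2 (YKR009C, chromosome XI, 454352 to 457054, minus strand), whose product carries out the hydration and the second oxidation, had -0.11 in delRXT3, -0.00057 in T73RXT3 and -0.26 in CLIB215RXT3, and 0.07 in delPHO23, 0.53 in T73PHO23 and 0.23 in CLIB215PHO23. Its columns did not go the way of POX1. Both genes hold 2 oleate response elements, and a link between elements and values was not tested. FOX2 was not low in delPHO23 or CLIB215PHO23, and its range of 0.79 was close to the median of all complete ORFs.

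POT1 (YIL160C, chromosome IX, 40191 to 41444, minus strand) codes for the thiolase that ends the cycle. It had a value in T73PHO23 (-0.997) and in T73RXT3 (-1.06) and none in the other 4 columns. Only 13 ORFs of the table had values in exactly these 2 columns, among 124 ORFs with 2 values. Its 2 values sum to -2.06, so the centre they were set against was not the mean of these 2 columns. The minimum for a value to be given is not known from the sources used here, and a missing value is not read here as a level.

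The auxiliary enzymes for unsaturated fatty acids went with POX1 in being low in delPHO23 and CLIB215PHO23. ECI1 (YLR284C, chromosome XII, 706198 to 707040, minus strand), the enoyl-CoA isomerase, had 0.40 in delRXT3, 0.45 in T73RXT3 and 0.57 in CLIB215RXT3, and -0.85 in delPHO23, 0.28 in T73PHO23 and -0.39 in CLIB215PHO23. SPS19 (YNL202W, chromosome XIV, 259578 to 260456, plus strand), the dienoyl-CoA reductase, had 0.52 in delRXT3, 0.93 in T73RXT3 and 0.64 in CLIB215RXT3, and -0.85 in delPHO23, -0.17 in T73PHO23 and -1.34 in CLIB215PHO23. SPS19 had the widest range of the 8 genes, 2.28, which 0.484% of complete ORFs exceeded, and that of ECI1 was 1.42, which 8.94% exceeded. ECI1 and SPS19 differed from POX1 in T73PHO23, which for them was the highest of the PHO23 columns but below every RXT3 column.

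CTA1 (YDR256C, chromosome IV, 968133 to 969680, minus strand), the peroxisomal catalase, had -0.77 in delRXT3, 0.52 in T73RXT3 and -0.53 in CLIB215RXT3, and -1.12 in delPHO23, 0.19 in T73PHO23 and no value in CLIB215PHO23. Both T73 columns were thus above 0 and the 3 others with a value were below it. A missing value in CLIB215PHO23 alone occurred in 58 ORFs. CTT1, the catalase gene of the cytosol, had -0.32, 0.53 and -0.9997 in delPHO23, T73PHO23 and CLIB215PHO23.

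PEX11 (YOL147C, chromosome XV, 47933 to 48643, minus strand), a membrane protein of peroxisome proliferation, ran opposite to POX1, ECI1 and SPS19 in delPHO23 and CLIB215PHO23. It had -0.57 in delRXT3, 0.11 in T73RXT3 and -0.03 in CLIB215RXT3, and 0.83 in delPHO23, 0.43 in T73PHO23 and 0.61 in CLIB215PHO23. All PHO23 columns were above all RXT3 columns, with the highest value in delPHO23, where POX1, ECI1, SPS19 and CTA1 were low. Within the RXT3 columns PEX11 had the order of CTA1, lowest in delRXT3 and highest in T73RXT3. Its range was 1.40, exceeded by 9.60% of complete ORFs.

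**Figure D2:**
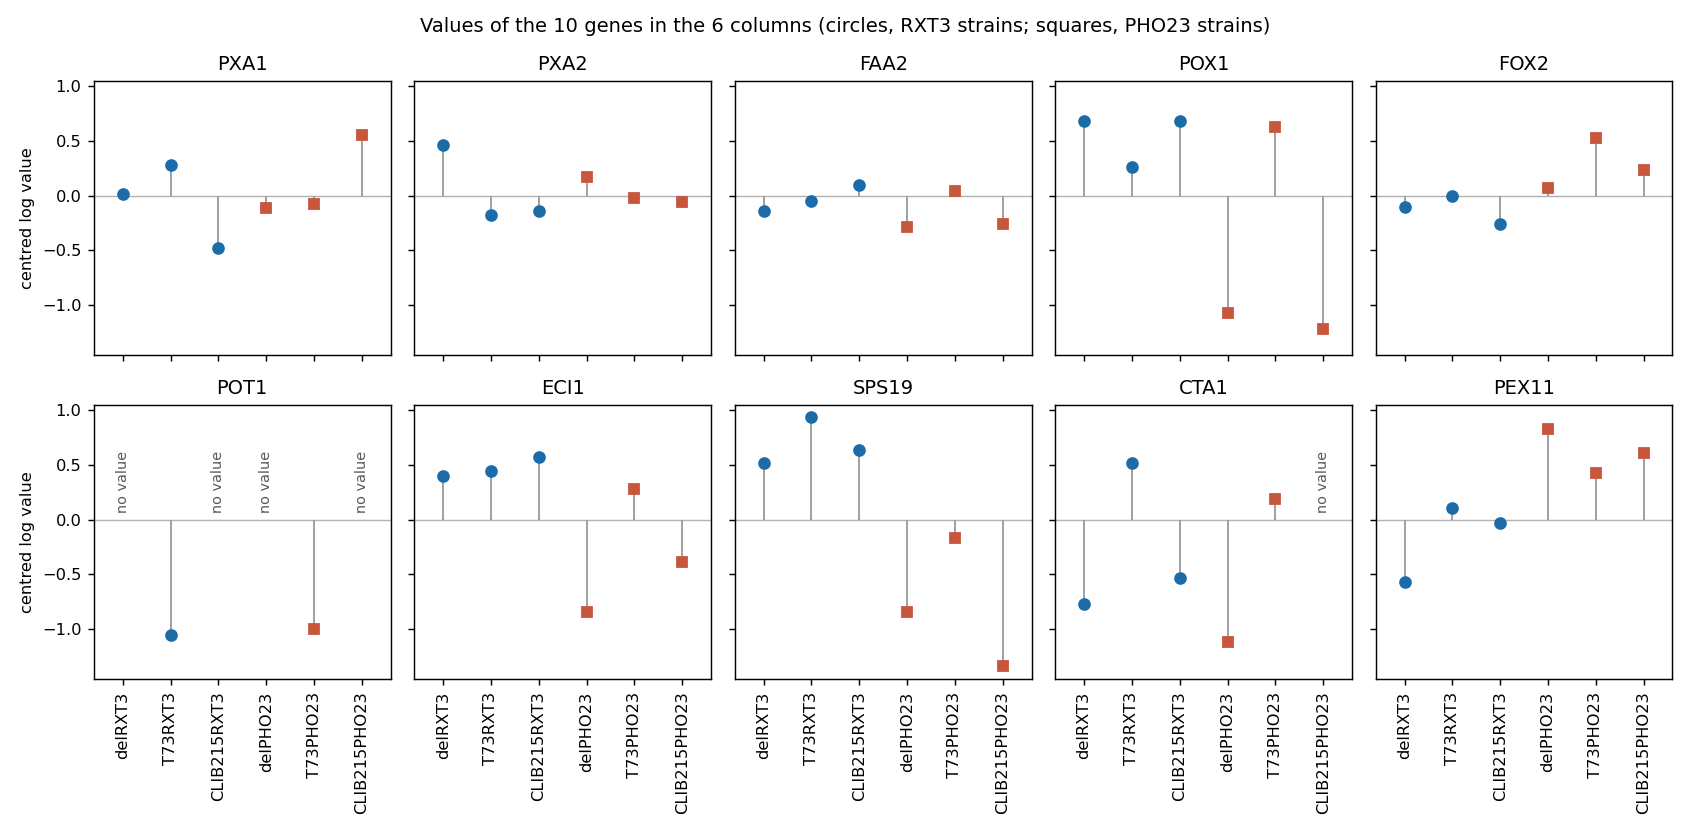
Centred log values of the 10 genes. Each panel is a gene, the horizontal axis gives the 6 columns (circles for RXT3 strains, squares for PHO23 strains) and the vertical axis the centred log value, with 1 pooled value per column and no error bar. POX1, ECI1 and SPS19 are below 0 in delPHO23 and CLIB215PHO23, PEX11 is above 0 there, and FAA2 stays between -0.29 and 0.09.

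The deletion of PHO23 was set against its T73 allele, since the study's design pairs each deletion with natural alleles of the same gene. POX1 (-1.69) and ECI1 (-1.13) were lower in delPHO23 by at least 1 unit, a 2-fold difference if the base is 2, and so was CTA1 (-1.31), which is not among the 8 complete genes. No gene of the 10 was higher by that much. Of the 8 complete genes 2 passed this size, and of all complete ORFs 8.47% did. SPS19 differed by -0.68, FOX2 by -0.46, FAA2 by -0.34 and PXA1 by -0.04, while PEX11 differed by 0.40 and PXA2 by 0.19. The median of the 8 was -0.40, beside -0.04 over all complete ORFs. The SD over complete ORFs was 0.42 in both delPHO23 and CLIB215PHO23 and 0.28 to 0.32 in the other columns, and with the columns scaled to a common SD ECI1 came to -0.997. Under the names of the genotype field POX1 came to -0.37 here, ECI1 to 0.16 and CTA1 to 0.33. SPS19 then passed at 1.10, 1 of 8 genes beside 3.05% of complete ORFs.

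The same deletion was set against the CLIB215 allele. None of the 8 complete genes differed by 1 unit, beside 3.21% of complete ORFs, and their median was 0.06, beside 0.02 over all. POX1 differed by 0.15, SPS19 by 0.49 and ECI1 by -0.46. The largest difference was that of PXA1, -0.67, and 5.85% of complete ORFs lay as low. With the genotype field's names POX1 (1.48) and SPS19 (2.28) passed here, beside 6.80% of complete ORFs.

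The T73 allele of PHO23 was set against the CLIB215 allele. POX1 was higher with the T73 allele by 1.85 and SPS19 by 1.17, which made 2 of 8 genes past 1 unit, beside 8.80% of complete ORFs. For POX1, 0.404% of complete ORFs were as high or higher, and for SPS19 2.85% were. ECI1 was higher by 0.67, FAA2 and FOX2 by 0.30 each and PXA2 by 0.04, and PXA1 (-0.63) and PEX11 (-0.19) were lower. The median of the 8 was 0.30, beside 0.06 over all complete ORFs. Titles and genotype field agreed on these columns, and with a common SD SPS19 came to 0.89. The 3 comparisons at PHO23 share their columns, so they are not separate evidence.

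At RXT3 CTA1 was the gene with differences past 1 unit. None of the 8 complete genes passed 1 unit between delRXT3 and T73RXT3, where 2.89% of complete ORFs did, nor between delRXT3 and CLIB215RXT3, where 2.32% did, nor between T73RXT3 and CLIB215RXT3, where 2.20% did. The medians of the 8 were -0.10, -0.06 and 0.06 in that order. CTA1, which is not among the 8, was lower in delRXT3 than in T73RXT3 (difference -1.29) and higher in T73RXT3 than in CLIB215RXT3 (1.05). Of complete ORFs 0.444% lay as low as CTA1 in the first of these comparisons and 1.11% as high in the second. Otherwise the widest differences were those of PXA1 between T73RXT3 and CLIB215RXT3 (0.77), of PEX11 between delRXT3 and T73RXT3 (-0.67) and of PXA2 between delRXT3 and T73RXT3 (0.64). POX1 differed by 0.42 between delRXT3 and T73RXT3, by -0.0027 between delRXT3 and CLIB215RXT3 and by -0.42 between T73RXT3 and CLIB215RXT3. Under the names of the genotype field CTA1 came to -0.23 and 0.58 in these comparisons. Under those names 4 of 8 genes passed between delRXT3 and CLIB215RXT3, beside 9.02% of complete ORFs, and 3 between T73RXT3 and CLIB215RXT3, beside 9.22%, POX1 among them at 1.75 in both.

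Across the loci, the columns labelled as deletions were compared first. POX1 was higher in delRXT3 than in delPHO23 by 1.75, SPS19 by 1.37 and ECI1 by 1.24, and PEX11 was lower (difference -1.40). These 4 of 8 genes passed 1 unit, beside 9.02% of complete ORFs. CTA1, low in both, differed by 0.35. With the CLIB215 allele at RXT3 against the same allele at PHO23, SPS19 (1.98) and POX1 (1.90) were higher and PXA1 (-1.03) was lower, 3 of 8 genes beside 8.96% of complete ORFs, and ECI1 stayed under that size at 0.96 (1.00 with a common SD). With the T73 allele at RXT3 against the same allele at PHO23, SPS19 alone passed, at 1.10, 1 of 8 genes beside 3.05% of complete ORFs. POT1, in its only comparison, differed by -0.06 between these T73 columns. Under the names of the genotype field no gene of the 8 passed in these 3 comparisons. The shares of complete ORFs were then 2.89% for the deletions, 3.21% for the CLIB215 alleles and 2.04% for the T73 alleles. POX1 came to 0.42, 0.15 and 0.06 in that order, but CTA1, outside the 8, passed between the deletions at -1.29.

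The RXT3 columns did not overlap the PHO23 columns in 4 of 8 genes, while this was so for 14.0% of complete ORFs. The mean of ECI1 was 0.47 at RXT3 and -0.32 at PHO23, that of SPS19 0.70 at RXT3 and -0.79 at PHO23. FOX2 and PEX11 had the PHO23 columns on top, FOX2 with means of -0.12 at RXT3 and 0.28 at PHO23 and PEX11 with -0.16 at RXT3 and 0.62 at PHO23. The nearest columns of the loci lay close for FOX2 (-0.00057 in T73RXT3, 0.07 in delPHO23) and ECI1 (0.40 in delRXT3, 0.28 in T73PHO23). They were 0.11 in T73RXT3 and 0.43 in T73PHO23 for PEX11, and 0.52 in delRXT3 and -0.17 in T73PHO23 for SPS19. The columns of a locus are 3 different strains and not replicates. Under the names of the genotype field the count is 0 of 8. The share of complete ORFs under those names was not computed, so this count has no background beside it.

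**Figure D3:**
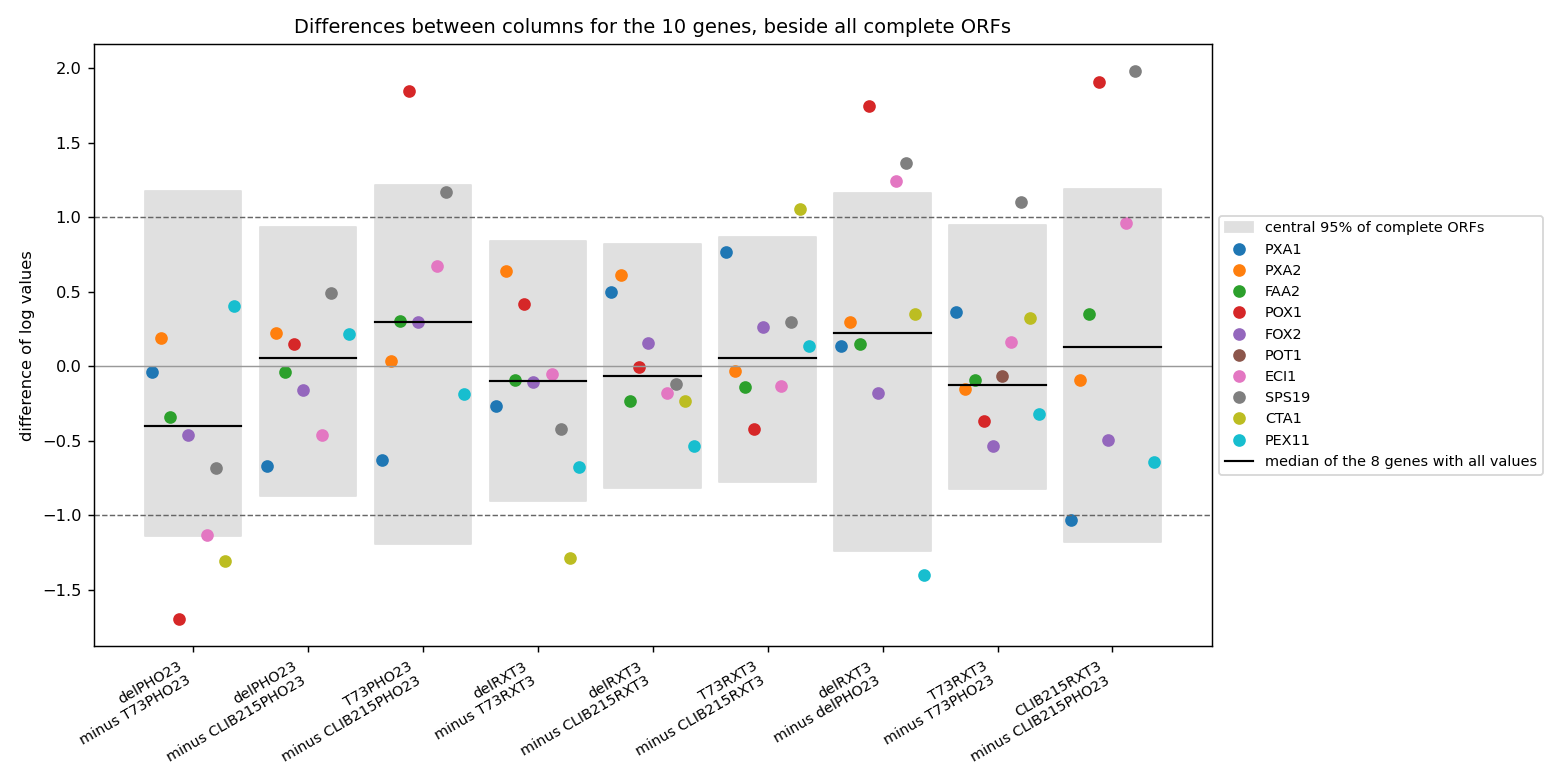
Differences between columns for the 10 genes. Each position on the horizontal axis is a comparison, the vertical axis gives the difference of log values (first column minus second), coloured points are genes, black lines the medians of the 8 genes with all values, grey boxes the central 95% of complete ORFs and dashed lines a difference of 1 unit. POX1 lies outside the grey box in 4 comparisons, all of them with delPHO23 or CLIB215PHO23 on one side.

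The profiles of the genes were compared with each other and with all complete ORFs by the root mean square difference over the 6 columns. Among the 3 genes with the widest range of the 8 complete ones, POX1 and ECI1 differed by 0.41, POX1 and SPS19 by 0.44 and ECI1 and SPS19 by 0.48. The farthest pair was SPS19 and PEX11, at 1.25. The ORFs nearest to POX1 were COX26 (0.09), COS3 (0.25) and MAL31 (0.27), and ECI1 ranked 48 in that order. Nearest to ECI1 were SSO1, MFB1 and CUP9 (0.16 each), with POX1 at rank 722. Nearest to SPS19 were IRC18 (0.18) and then YHR054C and RSC30 (0.21 each), a pair whose values were identical in all 6 columns. The columns share the strain background and the authors' centring, and a nearness over 6 values is a description of these columns.

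Neighbours on the chromosome were examined within 400 bases of each gene. NOP53, which ends 294 bases beyond PXA1 on the other strand, had -0.14, 0.39 and -0.42 in delRXT3, T73RXT3 and CLIB215RXT3, and 0.31, -0.12 and 0.50 in delPHO23, T73PHO23 and CLIB215PHO23. It differed from PXA1 by a root mean square of 0.19, and 0.706% of complete ORFs were nearer to PXA1. Whether reads of one were counted for the other was not tested. SPS18, which is read away from SPS19 across 300 bases, did not follow it, with 0.45, -0.04 and -0.14 in the RXT3 columns and 0.17, 0.50 and -0.51 in the PHO23 columns. PUT7, whose end lies 67 bases from that of ECI1, had 0.38, -0.02 and -0.18 in the RXT3 columns and -0.26, 0.44 and -0.26 in the PHO23 columns.

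The rest of the pathway was read from lists of related genes. The list of peroxin genes, which build peroxisomes and import their proteins, held 30 genes, with INP1 and INP2, which are not peroxins, among them. Of the 30, 28 were complete, and between delPHO23 and T73PHO23 they were above 0 for 15 and below 0 for 13, with a median of 0.04. PEX34 (-1.31) and INP2 (-1.23) were lower in delPHO23, and PEX28 (1.22) and PEX31 (1.07) were higher. These were the genes of the list past 1 unit there, 2 lower and 2 higher of 28. Of all complete ORFs 8.47% passed and 46.9% were above 0. PEX7, the receptor that imports the thiolase Pot1, was higher by 1.34 in delRXT3 than in T73RXT3, and lower in T73RXT3 than in CLIB215RXT3 (difference -1.25). It was 1 of 28 to pass in each, beside 2.89% and 2.20% of complete ORFs. PEX19, a receptor for peroxisomal membrane proteins, was higher by 1.05 in delRXT3 than in delPHO23 and by 1.07 in CLIB215RXT3 than in CLIB215PHO23. In the first 3 of 28 passed, beside 9.02% of complete ORFs, and in the second 1 of 28, beside 8.96%. Between delPHO23 and CLIB215PHO23, PEX4 (1.19) and PEX22 (1.11), whose products form a ubiquitin-conjugating pair on the peroxisome, were higher in delPHO23. They were the 2 of 28 to pass there, beside 3.21% of complete ORFs. PEX31 (1.62) and PEX13 (1.01) were higher in T73RXT3 than in T73PHO23 and INP2 (-1.49) was lower, 3 of 28 beside 3.05%. INP2 was also higher by 1.12 in T73PHO23 than in CLIB215PHO23, 1 of 28 beside 8.80%. Naming by the genotype field turned both directions of PEX19 (-0.078 and -0.038) and the second of PEX7 (1.16), whose first came to 0.09, and PEX28 came to 0.03, PEX34 to -0.23 and PEX4 to 0.64. In delPHO23 against T73PHO23, PEX31 (1.62) and INP2 (-1.49) kept their direction past 1 unit, as did PEX22 (1.29) against CLIB215PHO23. For T73RXT3 against T73PHO23, INP2 came to -1.71, PEX31 to 0.78 and PEX13 to 0.25.

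Of 19 other peroxisomal and oleate response genes 17 were complete. Between delPHO23 and T73PHO23, 14 were below 0 and 3 above, with a median of -0.27, and LPX1, a peroxisomal lipase gene, passed 1 unit, at -1.03 (-0.97 with a common SD and -0.26 under the names of the genotype field). Of all complete ORFs 46.9% were above 0 there and 8.47% passed, with a median of -0.04. Between T73PHO23 and CLIB215PHO23, 11 were above 0, the median was 0.29, and GPD1, a glycerol-3-phosphate dehydrogenase gene, passed at 1.37, while 54.6% of all complete ORFs were above 0, their median was 0.06 and 8.80% passed. At RXT3, PCD1 (1.27) and FAT1 (1.07) were higher in delRXT3 than in T73RXT3, 2 of 17 beside 2.89% of complete ORFs. PCD1 was also higher in delRXT3 than in CLIB215RXT3 (1.11), 1 of 17 beside 2.32%. Between T73RXT3 and T73PHO23 FAT1 alone passed, at -1.26, beside 3.05%. Between CLIB215RXT3 and CLIB215PHO23 GPD1 alone passed, at 1.06, beside 8.96%. Under the names of the genotype field PCD1 came to 1.11 and 0.72 and FAT1 to 0.34 and -0.53. Of the regulators, ADR1 had 0.07, -0.09 and -0.22 in delPHO23, T73PHO23 and CLIB215PHO23, and OAF1 had -0.14, 0.45 and 0.23. PIP2 had 0.11 and 0.26 in the first 2 of these columns and no value in the third. UME6, the partner of Rpd3L at URS1, was higher by 1.43 in delPHO23 than in T73PHO23, the only regulator to pass there (-0.26 under the names of the genotype field). No gene of fatty acid synthesis among 12, the opposite pathway, passed 1 unit in any of the 9 comparisons, and their medians lay between -0.13 and 0.06. With 2.20% to 9.02% of complete ORFs past 1 unit, a count of 0 among 12 genes is near the background.

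Larger differences than those of POX1 were found among 9 genes of the glyoxylate cycle and acetyl transfer, which use the acetyl-CoA that leaves the cycle. Between T73PHO23 and CLIB215PHO23, 4 of 9 passed 1 unit, beside 8.80% of complete ORFs. The glyoxylate cycle genes MLS1 (3.46) and ICL1 (3.07) were higher with the T73 allele, and CAT2 (-1.29), for carnitine acetyltransferase, and CIT2 (-1.20), for peroxisomal citrate synthase, were lower. Between delPHO23 and T73PHO23, 4 were lower and 2 higher by that size, beside 8.47% of complete ORFs. CAT2 (1.17) and CRC1 (1.14) were the 2 higher in delPHO23. MLS1 (-3.45), ICL1 (-2.66), YAT1 (-2.01), another carnitine acetyltransferase gene, and MDH2 (-1.19) were lower in delPHO23. With the genotype field's names they came to -1.10, -0.82, -1.13 and -0.55 in that order.

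**Figure D4:**
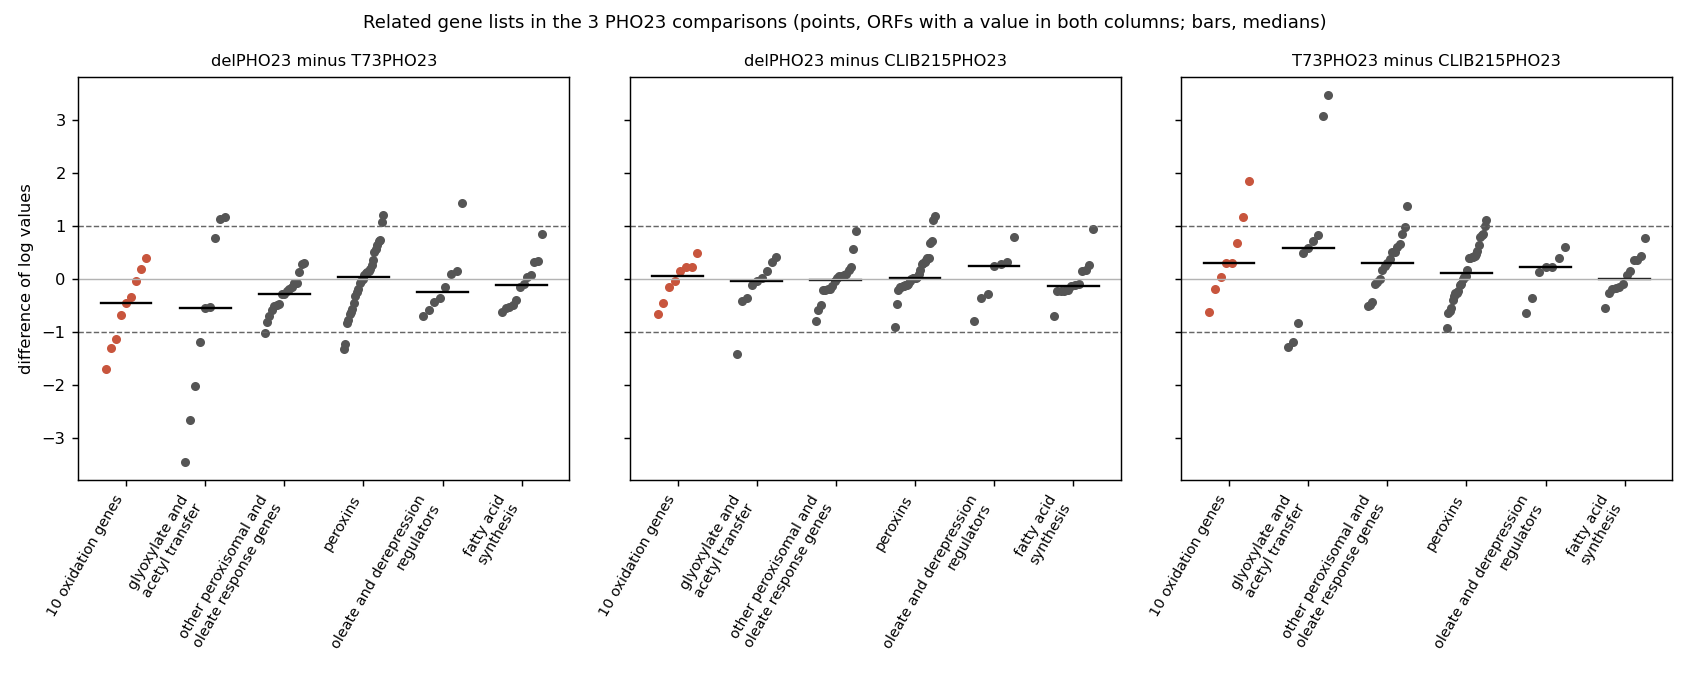
Related gene lists in the comparisons at PHO23. Each panel is a comparison, the horizontal axis gives the list, the vertical axis the difference of log values, points are ORFs with a value in both columns (the 10 oxidation genes in red), black bars their medians and dashed lines a difference of 1 unit. In the left panel the red points reach -1.69 for POX1, and the glyoxylate and acetyl transfer list reaches -3.45 for MLS1, while the points of fatty acid synthesis stay within 1 unit of 0.

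The 104 other genes with an oleate response element in their window were set beside the 10 genes. They are not all separate elements. The windows of NNT1, PSF3, SPS18 and BNR1 hold the elements of their neighbours ECI1, PEX11, SPS19 and POT1, in that order. Of the 104 genes, 81 were complete ORFs. Between delPHO23 and T73PHO23 11 of 81 passed 1 unit (13.6%), 5 of them higher and 6 lower, with a median of -0.12. Between T73PHO23 and CLIB215PHO23 9 passed (11.1%), 4 higher and 5 lower, with a median of 0.09. Over all complete ORFs the shares were 8.47% and 8.80% and the medians -0.04 and 0.06. Over the 9 comparisons the share among the 81 was lowest between delRXT3 and CLIB215RXT3, at 1.23% beside 2.32% of complete ORFs. It was highest between delRXT3 and delPHO23, at 16.0% beside 9.02%.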

How the data were processed

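Per the labels' protocols, polyadenylated RNA fragments were captured and reverse transcribed with barcoded primers that held molecular identifiers. The submitters' processing notes name Bowtie (no version) and build R64. The sources used here do not give read assignment, counting, normalization or the minimum for a value. The authors deposited 1 table of signed log values, read as log2 because no base is stated. If the base were e, all differences and orders would stand and 1 unit would be a larger ratio. Of 6701 rows, 51 have no name. Columns were joined to groups by the sample titles, which begin with the column's name. Values are centred per ORF by a rule that is not stated, so differences between columns are given.

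Differences of at least 1 unit were counted over the 4956 complete ORFs, with no test, because no column has replicates. The genes and lists were chosen with earlier results of these data known. Genes named beside the 10 are list members past 1 unit, at most 4 per list and comparison, and the 3 ORFs nearest to each of the 3 widest of the 8 complete genes. CAT2 and CRC1 between delPHO23 and T73PHO23 were added to the 4 after their values were seen. Not every list member past 1 unit is described in each comparison. Regulators below that size, CTT1 and the chromosomal neighbours were named after their values were seen. Alternatives were naming by the genotype field, subtracted column medians, columns scaled to a common SD, ORFs with a value in both columns, and sizes of 0.5 and 1.5 units. The counting and nearness steps were tested on simulated data. Motifs were searched in RefSeq's R64 sequence. Python 3.11.15, pandas 2.3.3, numpy 2.4.6 and matplotlib 3.10.9 were used.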

Additional observations from a re-analysis of the deposited data

Results flagged for a closer look

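With the columns named by the titles, POX1 differed in opposite directions at the 2 loci. In delPHO23 it was lower than in T73PHO23 (difference -1.69), and in delRXT3 it was higher than in T73RXT3 (0.42). With the T73 allele it was higher than with the CLIB215 allele at PHO23 (1.85) and lower at RXT3 (-0.42). Each of these rests on 1 pooled value per strain, the comparisons at a locus share the T73 column, the label delRXT3 is not borne out by RXT3, and the difference between the loci was not tested. Under the names of the genotype field POX1 was higher with the T73 than with the CLIB215 allele at both loci, by 1.85 at PHO23 and 1.75 at RXT3. The deletion against the T73 allele came to -0.37 at PHO23 and to -0.0027 at RXT3, which is too near 0 to give a direction. Among the 10 genes under the titles, POX1 alone had opposite signs at the loci together with a difference of at least 1 unit at one of them.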

How the results depend on the processing

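No paired analysis was possible because the table holds 1 column per group and its columns carry no replicate number, and for the same reason leaving out replicates was not run. Subtracting column medians changed no count of genes past 1 unit and left every median within the limits used for the 9 comparisons. Scaling the columns to a common SD left 1 gene past 1 unit between delPHO23 and T73PHO23, without ECI1, beside 6.50% of complete ORFs. It left 1 between T73PHO23 and CLIB215PHO23, without SPS19, beside 6.98%. The count between CLIB215RXT3 and CLIB215PHO23 rose to 4, with ECI1 at 1.00, beside 7.59%. With ORFs valued in both columns, CTA1 adds 1 gene between delRXT3 and T73RXT3 and 1 between T73RXT3 and CLIB215RXT3, and the count between delPHO23 and T73PHO23 is 3.

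At 1.5 units the count was 1 each for delPHO23 against T73PHO23, T73PHO23 against CLIB215PHO23 and delRXT3 against delPHO23, and 0 for T73RXT3 against T73PHO23. At 0.5 units it was 1 for delPHO23 against CLIB215PHO23, 4 for T73PHO23 against CLIB215PHO23, 2 for delRXT3 against T73RXT3, 3 for delRXT3 against CLIB215RXT3, 1 for T73RXT3 against CLIB215RXT3, 2 for T73RXT3 against T73PHO23 and 5 for CLIB215RXT3 against CLIB215PHO23. Over the 9 comparisons 0.0404% to 2.00% of complete ORFs passed 1.5 units and 17.9% to 35.8% passed 0.5 units.

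Naming the columns by the genotype field sets other columns against each other. It gave counts of 1 (delPHO23 against T73PHO23), 2 (delPHO23 against CLIB215PHO23), 4 (delRXT3 against CLIB215RXT3), 3 (T73RXT3 against CLIB215RXT3) and 0 (delRXT3 against delPHO23, and each allele at RXT3 against PHO23). The shares of complete ORFs were 3.05%, 6.80%, 9.02% and 9.22% in that order, and 2.04% to 3.21% beside the counts of 0. The number of genes without overlap between loci, added after seeing the data with its alternatives, became 0, with no share of complete ORFs computed beside it. Medians became -0.12 for delPHO23 against T73PHO23, 0.22 for delRXT3 against CLIB215RXT3 and -0.10 for delRXT3 against delPHO23. Of the single-gene differences 84 moved, by more than 1.5 times or, for those under 1 unit, by a change of sign. Another 31 kept their sign within 1.5 times or changed by less than 0.1 units. Sign changes among the 84 include PEX11 (0.40 to -0.32) and SPS19 (-0.68 to 1.10) in delPHO23 against T73PHO23. Differences past 1 unit changed sign in 9 cases, for ECI1 (0.16), CTA1 (0.33) and UME6 (-0.26) in delPHO23 against T73PHO23, for ECI1 (-0.050), SPS19 (-0.42) and PEX19 (-0.078) in delRXT3 against delPHO23, for PEX7 (1.16) in T73RXT3 against CLIB215RXT3, and for UME6 (0.79) and PEX19 (-0.038) in CLIB215RXT3 against CLIB215PHO23. Depth is unknown, and no value has a replicate spread.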
